A study of Mus musculus with 12 samples.

Results

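Calvariae of Runx2+/- mouse embryos whose dams received MS-275 were compared with calvariae of wild type (WT) embryos whose dams received vehicle, to ask how near the treated heterozygotes came to untreated wild type. The calvaria is the roof of the skull. Both groups were C57BL/6 embryos at embryonic day 17.5, from parents mated at 8 weeks of age. MS-275 was given to pregnant dams by intraperitoneal injection at 10 mg per kg, 2 times, at 14.5 and 16.5 days post coitum. Each group held 3 libraries, so 6 of the 12 libraries of the study were compared. The other 6, 3 of Runx2+/- with vehicle and 3 of WT with MS-275, entered the shared fit and are given beside the members where they show where a value stands. Whether replicates are different embryos or litters is not in the labels, and p-values therefore reflect only how far these libraries spread, which may be technical. The deleted part of Runx2 is not named there either.

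Runx2 is the transcription factor that commits mesenchymal cells to the osteoblast lineage, and it acts with its partner Cbfb at promoters of bone matrix genes. Loss of 1 copy gives cleidocranial dysplasia in people and, in mice, delayed ossification of the calvaria with wide sutures and fontanelles. MS-275 (entinostat) inhibits class I histone deacetylases (HDACs), which remove acetyl groups from histones and other proteins within corepressor complexes.

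The library labelled Runx2+/- MS-275 replicate 3 stood apart from the other 2 of its group. On the first principal component, which held 72.5% of the variance, it scored −106 beside 114 and 83.9 for replicates 1 and 2, and beside −108, −111 and 5.51 for WT vehicle replicates 1, 2 and 3. Its reads outside genes made up 22.2% of uniquely aligned reads, against 6.36% and 8.65% in replicates 1 and 2 and 10.5% to 15.2% in WT vehicle. WT vehicle replicate 3 stood apart from the other WT vehicle libraries. Counts in genes were 13307456 to 19044500 per library in WT vehicle and 15405004 to 17865741 in Runx2+/- MS-275. Sex moved with the groups: Xist, the RNA of the inactive X chromosome, stood at 2719, 3053 and 3441 CPM (counts scaled to a common library size) in the 3 treated heterozygotes and at 1837, 1.96 and 2.32 CPM in WT vehicle, and Y-linked Ddx3y at 0.186, 0.159 and 0 CPM in the former, beside 0, 76.1 and 79.98 CPM. The part of sex in the results was not tested. Because replicate 3 stood apart, results are given with all 3 treated heterozygous libraries and again without replicate 3.

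Runx2 (ENSMUSG00000039153, chromosome 17 from 44495987 to 44814797 on the minus strand, GRCm38) stood at 45.4, 42.4 and 46.1 CPM in WT vehicle replicates 1, 2 and 3, and at 83.98, 93.4 and 34.1 CPM in Runx2+/- MS-275 replicates 1, 2 and 3. CPM here use library sizes scaled by TMM, which assumes that most genes do not differ. Treated replicates 1 and 2 lay above every WT vehicle library and replicate 3 below every one. The log2 fold change, treated heterozygotes over WT vehicle, was 0.66 (SE 0.36, adjusted p = 0.287 with edgeR) with a 95% interval of −0.14 to 1.45. Without replicate 3 it was 0.99 (SE 0.27, adjusted p = 0.0193 with edgeR), and its highest adjusted p was 0.114 when 1 more library was left out (not called without WT vehicle replicate 1 or 2 or treated replicate 1 or 2). The call was also lost when counts were scaled by library size alone. In Runx2+/- vehicle the level was 65.2, 32.7 and 58.03 CPM. Gene counts do not separate the alleles, and a deleted allele can still give reads from the rest of the gene.

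The distance of a library from untreated wild type was taken as the root mean square of log2 CPM differences from the WT vehicle mean over the 17967 genes tested. It was 1.51, 1.29 and 0.602 in Runx2+/- MS-275 replicates 1, 2 and 3. WT vehicle libraries, each against the mean of the other 2, lay at 0.631, 0.763 and 1.22. Replicate 3 thus had the smallest distance of the 6 libraries and replicates 1 and 2 the largest, though a WT vehicle library is set against 2 libraries and a treated one against 3. The group means were 1.14 ± 0.476 and 0.870 ± 0.307 (SD, n = 3), a difference of 0.267. Shuffling the 6 distances between the groups gave a two-sided permutation p of 0.5, where 3 against 3 can give no less than 0.1. The distances were not recomputed in each shuffle and depend on which libraries are WT vehicle, so nothing is concluded from this p. Leaving out 1 library of either group moved the difference in means between −0.168 and 0.791: it was −0.168 and −0.0562 without WT vehicle replicate 1 or 2, 0.791 without WT vehicle replicate 3, and 0.528 without treated replicate 3. Runx2+/- vehicle libraries lay at 0.423, 0.629 and 0.695, and WT MS-275 libraries at 1.39, 1.64 and 1.47.

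**Figure D1:**
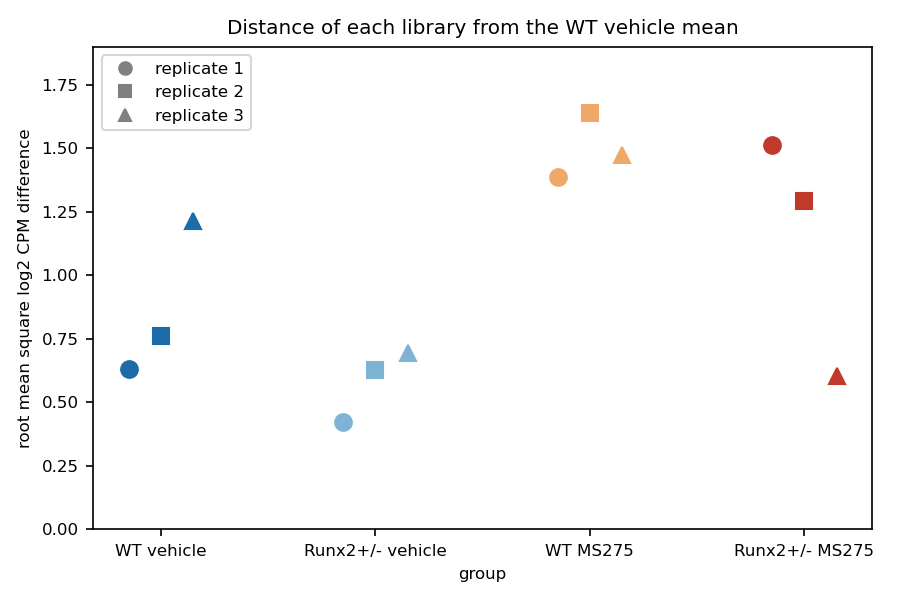
Root mean square log2 CPM difference (y axis) of each of the 12 libraries from the WT vehicle mean (a WT vehicle library from the mean of the other 2), by group (x axis); 1 symbol is 1 library. Runx2+/- MS-275 replicates 1 and 2 (1.51 and 1.29) lie with the WT MS-275 libraries (1.39 to 1.64), and replicate 3 (0.602) lies with the vehicle libraries.

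With all 12 libraries in 1 fit, no gene passed between Runx2+/- MS-275 and WT vehicle by edgeR at an adjusted p of 0.05 (0% of 17967 genes in either direction), while 4284 genes (23.8%) had an unadjusted p under 0.05. DESeq2 called 1250 higher and 778 lower, and limma-voom called 0. This is no sign of equal levels. Only 5423 genes (30.2%) had a 95% interval of the log2 fold change that lay within 2-fold in either direction. Groups of 3 that did not overlap were seen in 1474 genes with all treated libraries higher (8.2%) and in 1770 with all lower (9.85%).

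Without replicate 3, edgeR called 3542 genes higher (19.4% of 18216) and 2971 lower (16.3%), which is 35.8% in all. Genes bounded within 2-fold were then 4494 (24.7%). These counts rested in part on treated replicate 1: without it as well, which leaves 1 treated heterozygous library, they were 609 and 361. Without WT vehicle replicate 3 instead they were 4091 and 4554. When counts were scaled by library size alone, the median of all genes moved from −0.12 to −0.96 and the calls became 853 higher and 8436 lower, so the balance of directions depends on the scaling and each gene list below is read beside the median of all genes.

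The library that was left out shows where it stands on these calls. Of the 3542 genes higher in replicates 1 and 2, replicate 3 lay within the range of the WT vehicle libraries in 50.8%, above it in 24.4% and below it in 24.8%, and it reached the nearer treated library in 0.847%. Of the 2971 genes lower, it lay within the WT vehicle range in 46.5%, below it in 33.3% and above it in 20.2%, and it reached the nearer treated library in 6.77%. Among all 18216 genes, replicate 3 lay within the WT vehicle range in 8439, above it in 4733 and below it in 5044. The split in the called genes was near this one, and places of replicate 3 in the lists below are read beside it. A scale was also set from 0, the mean of WT vehicle replicates 1 and 2, to 1, the mean of treated replicates 1 and 2. It used 6249 genes called between those libraries that differed by more than 1 log2 unit. Treated replicate 3 had a median position of 0.0651 on it, WT vehicle replicate 3 of 0.464, the Runx2+/- vehicle libraries of −0.0351 to 0.443, and the WT MS-275 libraries of 0.880 to 1.03. Libraries that set the scale lie at its ends by construction.

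**Figure D2:**
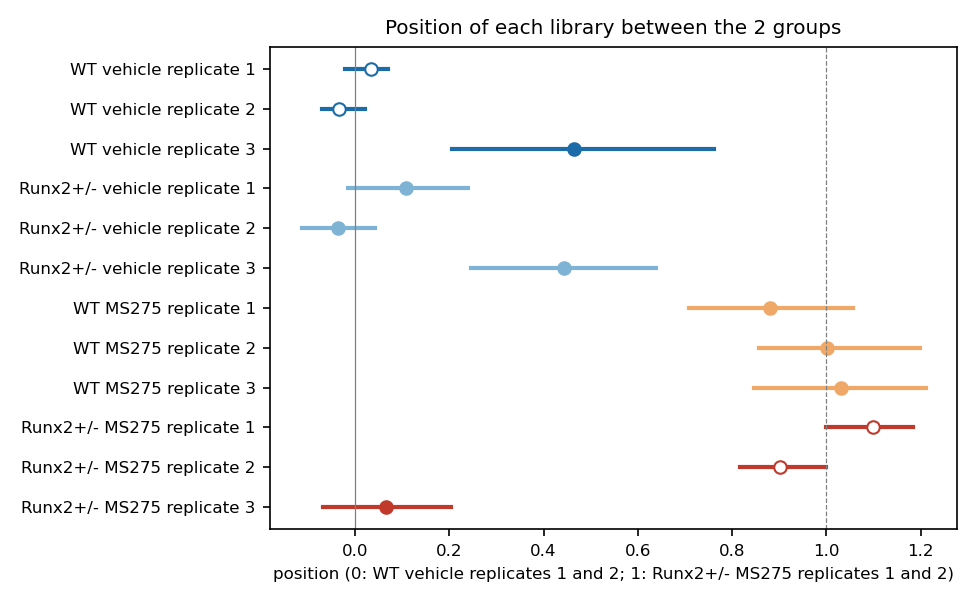
Position of each library (rows) between WT vehicle replicates 1 and 2 (0) and Runx2+/- MS-275 replicates 1 and 2 (1) over 6249 genes (x axis, no unit); dots are medians, lines span the quartiles, and open dots are the libraries that set the scale. Treated replicate 3 (0.0651) lies near the untreated end, while the 3 WT MS-275 libraries (0.880 to 1.03) lie near the treated end.

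Osteoblast transcription factors were called higher about as often as other genes, and lower less often. Without replicate 3, 3 of 15 rose and none fell, beside 19.4% and 16.3% of all genes (0 to 4 rose when 1 more library was left out, with 0 without treated replicate 1), with a median log2 fold change of 0.13, which was −0.68 on library size alone and −0.01 with a stricter filter on low counts. The 3, whose calls were all lost on library size alone, were Runx2, its partner Cbfb and Sp3, a zinc finger factor that stood at 111, 114 and 126 CPM in WT vehicle, against 292, 216 and 111 CPM in the treated heterozygotes. Cbfb stood at 90.1, 88.7 and 119 CPM in the WT vehicle libraries and 207, 145 and 74.5 CPM in the treated heterozygotes, 0.83 (SE 0.23, adjusted p = 0.0227 with edgeR) without replicate 3 and −0.04 on library size alone. Sp7 (osterix), which acts downstream of Runx2, stood at 50.6, 31.6 and 70.2 CPM in untreated wild type and 99.9, 79.9 and 20.1 CPM in treated heterozygotes. Treated replicates 1 and 2 were above all WT vehicle libraries and replicate 3 below all. Its log2 fold change was 0.39 with an SE of 0.55 with all libraries (−0.33 on library size alone) and 0.82 (SE 0.44, adjusted p = 0.156 with edgeR) without replicate 3 (−0.02), which did not pass. Of the 15, replicate 3 lay below the WT vehicle range in 11, beside 5044 of all 18216 genes.

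Bone matrix genes set replicates 1 and 2 and replicate 3 on opposite sides of untreated wild type. With all 3, none of 22 passed by edgeR, and the median was 1.31 beside −0.03 for all genes. Without replicate 3, 17 of 22 rose and none fell, with a median of 1.75 beside −0.12 for all genes, and 10 to 18 rose when 1 more library was left out (10 without treated replicate 1). Of all genes 19.4% rose and 16.3% fell without replicate 3, and on library size alone 11 of the 22 rose and none fell. In replicate 3, all 22 lay below the WT vehicle range, beside 5044 of all 18216 genes. The median difference of the list from the WT vehicle mean was 1.80, 1.63 and −0.97 on the log2 scale in treated replicates 1, 2 and 3, and −0.10, −0.39 and 0.52 in the WT vehicle libraries. In bulk RNA, fewer cells of a type and less RNA per cell cannot be told apart.

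Ibsp, which encodes bone sialoprotein, stood at 794, 453 and 975 CPM in WT vehicle, against 17960.5, 8944 and 375 CPM in the treated heterozygotes. Replicates 1 and 2 were on average 18.2-fold above the WT vehicle mean and replicate 3 at 0.507 of it. The log2 fold change was 3.62 (SE 1.08, adjusted p = 0.130 with edgeR), and 4.18 (SE 0.63, adjusted p = 0.00261 with edgeR) without replicate 3. Spp1, which encodes osteopontin, showed the same order, with 322, 279 and 715 CPM in the WT vehicle libraries and 19004, 8670.1 and 134 CPM in treated heterozygotes. The fold change in log2 units was 4.40 (SE 1.29, adjusted p = 0.129 with edgeR), and 4.98 (SE 0.70, adjusted p = 0.00210 with edgeR) without replicate 3. Bglap, which encodes osteocalcin, a product of mature osteoblasts, stood at 4.02, 3.11 and 6.27 CPM (WT vehicle) and 201, 79.2 and 2.09 CPM (treated). On the log2 scale the difference was 4.39 (SE 1.13, adjusted p = 0.129 with edgeR), and 4.97 (SE 0.52, adjusted p = 0.00105 with edgeR) without replicate 3. The neighbouring copy Bglap2 stood at 2.31, 2.25 and 3.61 CPM (WT vehicle) and 129.7, 57.9 and 1.13 CPM (treated), and reads of the 2 copies may have been split between them. These calls without replicate 3 held when any 1 other library was left out, as did those of Omd (osteomodulin, 4.13 with an SE of 0.66), Ifitm5 (a membrane protein of osteoblasts, 4.11 with an SE of 0.55), Mepe (a matrix phosphoprotein of osteocytes, 5.22 with an SE of 0.76) and Plod2 (a collagen lysyl hydroxylase, 1.78 with an SE of 0.20). Omd stood at 16.2, 14.6 and 38.6 CPM in untreated wild type and 477, 331 and 13.05 CPM in treated heterozygotes.

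Col1a1, the main collagen chain of bone, did not pass. It stood at 6176, 4820.3 and 6379 CPM in WT vehicle, against 13187, 7325 and 1104 CPM in treated heterozygotes, with replicate 3 at 0.191 of the WT vehicle mean. The fitted log2 difference was 0.32 (SE 0.81, adjusted p = 0.830 with edgeR) with a 95% interval of −1.47 to 2.10, and 0.82 (SE 0.61, adjusted p = 0.301 with edgeR) without replicate 3, with an interval of −0.55 to 2.20. Neither interval lies within 2-fold. The sign of Col1a1 depended on the processing (−0.51 and −0.07 on library size alone, with and without replicate 3), so a direction is not given.

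**Figure D3:**
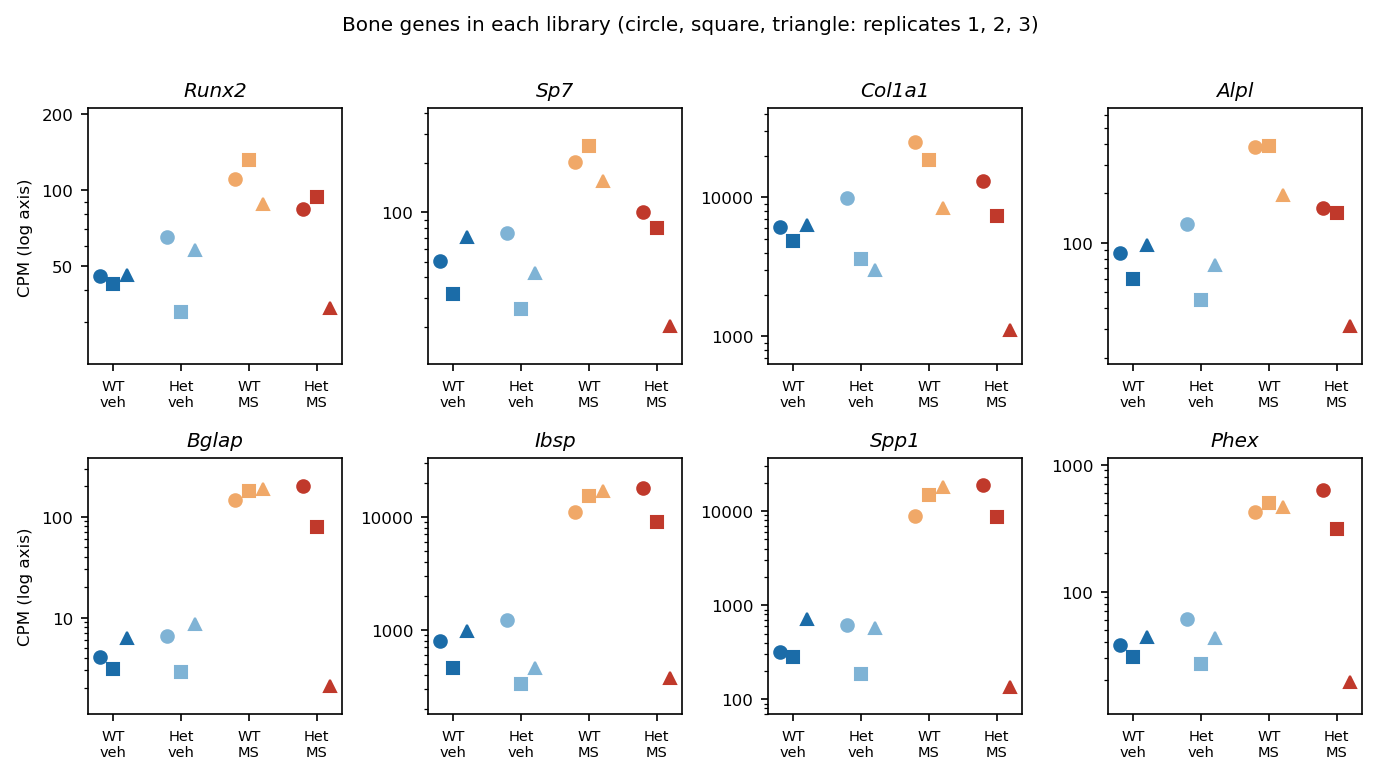
CPM (log axis) of 8 bone genes in each library of the 4 groups (WT or Het for Runx2+/-, veh for vehicle, MS for MS-275); 1 symbol is 1 library. Runx2+/- MS-275 replicates 1 and 2 lie above the vehicle libraries in Bglap, Ibsp, Spp1 and Phex, and replicate 3 (triangle) lies below all 3 WT vehicle libraries in all 8 genes.

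Promoters of 4 of these genes are shown because the treated libraries differed widely in them and Runx proteins bind a core written TGTGGT. Each runs from 250 bases before to 50 after the gene's start (RefSeq, GRCm38.p6), 5′ to 3′ on the gene's strand. Capitals mark TGTGGT or its reverse complement ACCACA. Bglap is read from chr3:88384417-88384716 (minus strand), Spp1 from chr5:104434861-104435160 (plus), Mepe from chr5:104325079-104325378 (plus) and Ibsp from chr5:104299037-104299336 (plus).
Bglap: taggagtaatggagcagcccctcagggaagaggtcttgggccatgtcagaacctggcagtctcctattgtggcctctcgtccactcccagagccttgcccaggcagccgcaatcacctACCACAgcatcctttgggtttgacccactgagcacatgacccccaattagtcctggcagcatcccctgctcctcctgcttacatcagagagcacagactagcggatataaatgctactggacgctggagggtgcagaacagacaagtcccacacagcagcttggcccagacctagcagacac
Spp1: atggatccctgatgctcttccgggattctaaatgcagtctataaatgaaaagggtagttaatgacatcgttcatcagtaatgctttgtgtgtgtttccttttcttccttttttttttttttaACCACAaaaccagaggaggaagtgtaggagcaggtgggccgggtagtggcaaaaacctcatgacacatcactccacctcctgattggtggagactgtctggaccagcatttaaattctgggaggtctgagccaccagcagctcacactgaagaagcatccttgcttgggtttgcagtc
Mepe: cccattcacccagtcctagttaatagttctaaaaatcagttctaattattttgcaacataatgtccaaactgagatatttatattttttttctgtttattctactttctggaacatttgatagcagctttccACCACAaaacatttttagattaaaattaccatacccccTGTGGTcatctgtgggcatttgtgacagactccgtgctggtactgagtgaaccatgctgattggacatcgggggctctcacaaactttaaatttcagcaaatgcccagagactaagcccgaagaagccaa
Ibsp: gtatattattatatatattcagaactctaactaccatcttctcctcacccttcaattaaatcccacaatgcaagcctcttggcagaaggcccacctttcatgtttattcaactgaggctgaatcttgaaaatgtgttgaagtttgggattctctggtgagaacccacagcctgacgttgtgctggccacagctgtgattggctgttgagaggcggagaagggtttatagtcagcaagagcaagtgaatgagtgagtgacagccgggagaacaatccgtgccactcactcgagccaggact
Bglap and Spp1 held 1 match each, Mepe 2 and Ibsp none, and another Spp1 promoter in the table (chr5:104435942-104436241, plus strand), not shown, held none. Among promoters of the bone matrix list, 6 of 19 (31.6%, for 16 of the 22 genes with an entry) held a match on either strand, beside 5506 of 32851 promoters in the whole table (16.8%). The share was 20.8% for mineralization, 21.7% for chondrocyte, 23.1% for osteoblast factor and 10.5% for osteoclast genes, and 22.2% (2 of 9) for basal and 0% (0 of 22) for suprabasal epidermal genes. A match describes letters in this window and no binding.

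Mineralization and osteocyte genes followed the same order. Without replicate 3, 8 of 17 rose and none fell (4 to 8 rose when 1 more library was left out, 4 without treated replicate 1, and 2 fell without WT vehicle replicate 3), with a median of 0.95. With all 3 libraries, none of 16 passed by edgeR, and the median was 0.52 but −0.20 on library size alone. Of all genes 19.4% rose and 16.3% fell without replicate 3, with a median of −0.12. On library size alone 5 members of the list then rose and 1 fell. Replicate 3 lay below the WT vehicle range in 13 of 17, beside 5044 of all 18216 genes. Phex, a membrane peptidase of mineralizing cells, stood at 37.7, 30.2 and 44.1 CPM in the WT vehicle libraries and 629.6, 309.7 and 19.4 CPM in treated heterozygotes. Its log2 fold change was 3.10 (SE 0.87, adjusted p = 0.129 with edgeR), and 3.65 (SE 0.38, adjusted p = 0.00101 with edgeR) without replicate 3. Dmp1, a matrix protein of early osteocytes, stood at 28.7, 24.3 and 33.5 CPM (WT vehicle) and 561, 256 and 10.7 CPM (treated), with a log2 fold change of 3.26 (SE 1.00, adjusted p = 0.131 with edgeR) that became 3.82 (SE 0.53, adjusted p = 0.00208 with edgeR). Both calls, and that of Enpp1 (which makes the mineralization inhibitor pyrophosphate, 2.51 with an SE of 0.31), held when any 1 other library was left out.

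Alpl, the alkaline phosphatase that mineralization needs, stood at 87.2, 59.98 and 97.8 CPM in untreated wild type and 163, 152 and 31.1 CPM in treated heterozygotes. The fold change in log2 units was 0.50 with an SE of 0.57 with all libraries (−0.23 on library size alone) and 0.95 (SE 0.42, adjusted p = 0.103 with edgeR) without replicate 3, so it did not pass. Fgf23, the osteocyte hormone of phosphate balance, was near the floor in WT vehicle (0.239, 0.230 and 0.247 CPM) and stood at 31.8, 1.91 and 0.348 CPM in treated heterozygotes, so replicates 1 and 2 differed widely between themselves. It had too few counts for the 12-library fit and rose without replicate 3, by 6.10 (SE 1.00, adjusted p = 0.00336 with edgeR), which ran from 2.90 to 6.92 when 1 more library was left out.

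Of 20 osteoclast genes, 2 rose (Ctsk and Car2) and 2 fell (Src and Clcn7) without replicate 3, beside 19.4% and 16.3% of all genes, and the median was −0.07 beside −0.12. On library size alone 0 rose and 5 fell. Replicate 3 lay below the WT vehicle range in 14 of the 20, beside 5044 of all 18216 genes, with a median difference of −1.04 from the WT vehicle mean. Ctsk, the collagen-degrading protease, stood at 112, 101 and 244 CPM in WT vehicle, against 772, 391 and 47.3 CPM in treated heterozygotes, with a log2 fold change of 1.41 (SE 0.82, adjusted p = 0.319 with edgeR) and of 1.93 (SE 0.60, adjusted p = 0.0329 with edgeR) without replicate 3. It did not pass without WT vehicle replicates 1 or 2 or treated replicate 1 (highest adjusted p 0.252), nor on library size alone. The call of Car2, a carbonic anhydrase (0.84 with an SE of 0.29, −0.06 on library size alone), was lost in 9 of 11 leave-one-out fits. Acp5, the tartrate-resistant acid phosphatase, stood at 35.9, 35.6 and 70.7 CPM (WT vehicle) and 96.1, 38.9 and 10.00 CPM (treated) and did not pass, with 0.02 with an SE of 0.83 (−0.78 on library size alone) and 0.51 (SE 0.77, adjusted p = 0.612 with edgeR) without replicate 3 (−0.40). Src, a kinase that osteoclasts need to resorb bone, was lower in all 3 treated libraries, at 21.5, 27.9 and 40.01 CPM beside 58.98, 66.8 and 42.6, with −0.91 (SE 0.28, adjusted p = 0.132 with edgeR) and −1.18 (SE 0.28, adjusted p = 0.0124 with edgeR) without replicate 3, a call lost without treated replicate 1 (adjusted p 0.123). The call of Clcn7 held in 7 of 11 leave-one-out fits. Among the signals that induce osteoclasts, Tnfsf11 (RANKL) stood at 1.71, 1.56 and 3.01 CPM (WT vehicle) and 4.45, 4.14 and 0.783 CPM (treated) and did not pass at 1.03 (SE 0.53, adjusted p = 0.147 with edgeR) without replicate 3, while Tnfrsf11b, its decoy receptor, stood at 4.78, 5.13 and 7.85 CPM (WT vehicle) and 61.3, 25.3 and 4.09 CPM (treated) and rose without replicate 3 (2.87 with an SE of 0.53, lost without treated replicate 1).

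Cartilage genes rose with bone matrix in treated replicates 1 and 2. Without replicate 3, 12 of 20 rose and none fell, beside 19.4% and 16.3% of all genes (7 to 12 rose when 1 more library was left out, and 8 on library size alone). The median was 1.58 beside −0.12 for all genes. Replicate 3 lay below the WT vehicle range in 17 of 20, beside 5044 of all 18216 genes. Hapln1, the link protein of cartilage matrix, stood at 33.2, 37.8 and 48.6 CPM in the WT vehicle libraries and 512, 441 and 18.6 CPM in treated heterozygotes. On the log2 scale the difference was 3.02 (SE 0.84, adjusted p = 0.129 with edgeR), and 3.58 (SE 0.29, adjusted p = 0.000645 with edgeR) without replicate 3. Matn1, a cartilage matrilin, stood at 10.6, 9.56 and 22.2 CPM (WT vehicle) and 187, 213 and 3.70 CPM (treated) (3.82 with an SE of 0.49 without replicate 3), and the chondrocyte gene Snorc at 0.917, 1.15 and 1.38 CPM (WT vehicle) and 31.4, 19.7 and 0.739 CPM (treated) (4.47 with an SE of 0.38). Genes of suture mesenchyme and osteoprogenitors were mixed, with 8 of 28 higher and 3 lower without replicate 3, beside 19.4% and 16.3% of all genes (4 to 12 higher when 1 more library was left out, and 3 higher and 6 lower on library size alone), and a median of 0.58, which was −0.21 on library size alone. Aspn, a matrix proteoglycan, stood at 199, 208 and 367 CPM in untreated wild type and 2173, 1692 and 196 CPM in treated heterozygotes (2.90 with an SE of 0.48 without replicate 3), and Alx1, a skull patterning factor, at 18.2, 13.9 and 7.66 CPM (WT vehicle) and 61.2, 52.05 and 16.6 CPM (treated) (2.09 with an SE of 0.33).

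Signalling genes held several members that were lower in all 3 treated libraries, replicate 3 included. In the FGF and hedgehog list, 7 of 26 had all treated libraries below all WT vehicle libraries, beside 9.85% of all genes, and none passed with all libraries. Without replicate 3, 8 of 26 fell and none rose, but only 1 fell without treated replicate 1. Of all genes 16.3% fell and 19.4% rose without replicate 3. On library size alone 15 of the 26 then fell and none rose. Ptch1, the hedgehog receptor and itself a hedgehog target, stood at 42.5, 37.6 and 43.03 CPM in WT vehicle, against 19.02, 22.6 and 26.7 CPM in treated heterozygotes. The fitted log2 difference was −0.85 (SE 0.19, adjusted p = 0.129 with edgeR), and −0.98 (SE 0.19, adjusted p = 0.00631 with edgeR) without replicate 3. Spry1, an inhibitor of FGF signalling that FGF induces, stood at 22.1, 21.2 and 37.2 CPM (WT vehicle) and 7.79, 12.4 and 10.2 CPM (treated), with −1.40 (SE 0.33, adjusted p = 0.129 with edgeR) and −1.41 (SE 0.39, adjusted p = 0.0216 with edgeR) without replicate 3. Spry2 and Spry4 of the same family stood at 5.47, 9.09 and 11.6 CPM (Spry2) and at 11.2, 10.5 and 9.52 CPM (Spry4) in treated heterozygotes, beside 17.5, 17.2 and 28.2 for Spry2 and 16.9, 16.4 and 24.5 CPM for Spry4 in WT vehicle. The calls of Ptch1, Spry1 and Spry2 were lost without treated replicate 1 (highest adjusted p 0.0754, 0.172 and 0.104), and that of Spry4 also without replicate 2 (0.114).

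Of 34 BMP and TGF-beta genes, 8 rose and 3 fell without replicate 3 (4 to 10 rose when 1 more library was left out), beside 19.4% and 16.3% of all genes. On library size alone 5 rose and 10 fell, and the median of 0.34 became −0.47. All treated libraries lay below all WT vehicle libraries in 2 of the 34, beside 9.85% of all genes. Bambi, a decoy receptor of the pathway, stood at 20.2, 16.5 and 29.2 CPM in the WT vehicle libraries and 294, 178 and 16.6 CPM in treated heterozygotes with 3.42 (SE 0.40, adjusted p = 0.00135 with edgeR) without replicate 3, and Chrdl1, a secreted BMP antagonist, at 24.7, 22.2 and 53.2 CPM (WT vehicle) and 215, 205 and 22.3 CPM (treated) (2.65 with an SE of 0.41). In both, replicate 3 lay within the WT vehicle range. Smad1, which carries the BMP signal to the nucleus, was lower in all 3 treated libraries, at 20.6, 25.03 and 33.01 CPM beside 43.7, 41.02 and 43.2, with −0.70 (SE 0.18, adjusted p = 0.129 with edgeR) and −0.90 (SE 0.14, adjusted p = 0.00305 with edgeR) without replicate 3, a call that held when any 1 other library was left out. Of 30 WNT genes, 6 rose and 5 fell without replicate 3 (2 to 5 rose and 2 to 6 fell when 1 more was left out), near the 19.4% and 16.3% of all genes, with a median of −0.12, equal to that of all genes. Scaled by library size alone, 1 rose and 14 fell. In 4 of the 30 all treated libraries lay below all WT vehicle libraries, beside the same 9.85% of all genes. Wif1, a secreted WNT inhibitor, stood at 48.1, 37.97 and 48.2 CPM (WT vehicle) and 292, 198 and 29.6 CPM (treated) (2.45 with an SE of 0.35 without replicate 3). Wnt4, a WNT ligand, was lower in all 3 treated libraries, at 3.80, 4.78 and 15.2 CPM beside 26.4, 22.9 and 35.1 (−2.71 with an SE of 0.51 without replicate 3, lost without treated replicate 1).

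The drug's targets and their partners were measured as transcripts. Of 20 class I HDAC and corepressor genes, 4 rose and 9 fell without replicate 3, beside 19.4% and 16.3% of all genes, and 0 of each without treated replicate 1 as well. Scaled by library size alone, 0 rose and 15 fell. In 8 of the 20 all treated libraries lay below all WT vehicle libraries, beside 9.85% of all genes. Hdac1, a class I deacetylase, stood at 75.4, 62.7 and 90.8 CPM in untreated wild type and 187, 130.3 and 75.6 CPM in treated heterozygotes, with 0.78 (SE 0.30, adjusted p = 0.163 with edgeR) and 1.05 (SE 0.23, adjusted p = 0.00871 with edgeR) without replicate 3. That call was lost without treated replicate 1 (highest adjusted p 0.120) and on library size alone. Replicate 3 lay within the WT vehicle range. Hdac3, another class I deacetylase, was among the genes bounded within 2-fold, at 82.8, 85.3 and 93.6 CPM (WT vehicle) and 95.95, 91.98 and 95.1 CPM (treated), with a log2 fold change of 0.11 with an SE of 0.13 and a 95% interval of −0.16 to 0.39. Rcor1, a corepressor that holds HDAC1 and HDAC2, was lower in every treated library, at 38.4, 44.7 and 52.4 CPM beside 80.02, 73.1 and 74.3. Its log2 fold change was −0.75 (SE 0.16, adjusted p = 0.129 with edgeR), and −0.87 (SE 0.16, adjusted p = 0.00445 with edgeR) without replicate 3 (0.0596 without treated replicate 1). Among genes known to respond to HDAC inhibitors, 4 of 22 rose and 2 fell without replicate 3, no larger a share than the 19.4% and 16.3% of all genes, with a median of 0.07 whose sign changed under 10 of the alternatives. Cdkn1a (p21), often induced by these drugs, stood at 65.8, 60.4 and 73.1 CPM (WT vehicle) and 67.4, 57.4 and 43.2 CPM (treated) and did not pass, with −0.25 with an SE of 0.28 and an interval of −0.86 to 0.37. Crip2, a LIM protein, was lower in all 3 treated libraries, at 22.1, 22.00 and 28.96 CPM beside 50.6, 65.9 and 52.7, with −1.21 (SE 0.21, adjusted p = 0.123 with edgeR) and −1.35 (SE 0.23, adjusted p = 0.00353 with edgeR) without replicate 3.

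For proliferation genes the balance of calls depended on the scaling. Without replicate 3, 18 of 34 rose and 1 fell, beside 19.4% and 16.3% of all genes (6 to 22 rose when 1 more library was left out, 6 without treated replicate 1). On library size alone 6 rose and 10 fell, and the median of 0.62 became −0.24. In 8 of 34 all 3 treated libraries lay above all WT vehicle libraries, beside 8.2% of all genes. Cenpe, a kinetochore motor, stood at 57.5, 51.3 and 49.6 CPM in WT vehicle, against 158, 134 and 72.4 CPM in treated heterozygotes, with 1.20 (SE 0.26, adjusted p = 0.129 with edgeR) and 1.47 (SE 0.18, adjusted p = 0.00148 with edgeR) without replicate 3. Kif20a, a motor of cell division, stood at 25.7, 20.2 and 24.2 CPM (WT vehicle) and 80.9, 64.1 and 26.96 CPM (treated) (1.63 with an SE of 0.16 without replicate 3). Both calls held when any 1 other library was left out.

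Markers of tissues other than bone moved with the treated libraries too, and their part in the results above was not tested. Most epidermal genes stood far below WT vehicle in treated replicates 1 and 2 and not in replicate 3. Of 21 genes of the basal layer and its junctions, 18 fell without replicate 3 (11 to 18 when 1 more library was left out), and of 25 suprabasal and cornified genes, 25 fell (24 to 25). Of all genes 16.3% fell and 19.4% rose without replicate 3. Replicate 3 lay within the WT vehicle range in 12 of 21 and 23 of 25, beside 8439 of all 18216 genes. It lay below that range in 8 of 21 and 2 of 25, beside 5044 of all genes. In 6 of 21 and 2 of 25 all 3 treated libraries lay below all WT vehicle libraries, beside 9.85% of all genes. Krt5, the basal keratin, stood at 362, 218 and 436 CPM in the WT vehicle libraries and 0.186, 0.239 and 270.1 CPM in treated heterozygotes. The fold change in log2 units was −1.90 (SE 1.71, adjusted p = 0.516 with edgeR) with all libraries and −10.58 (SE 1.07, adjusted p = 0.000927 with edgeR) without replicate 3. Krt10, the suprabasal keratin, stood at 1181, 273 and 744 CPM (WT vehicle) and 3.62, 3.67 and 321 CPM (treated), with −2.74 (SE 1.37, adjusted p = 0.248 with edgeR) and −7.65 (SE 0.71, adjusted p = 0.000741 with edgeR). Lor (loricrin), of the cornified envelope, stood at 137, 35.1 and 127 CPM (WT vehicle) and 0.650, 0.239 and 33.6 CPM (treated), and Dsp (desmoplakin), of the desmosome, at 436, 215 and 366 CPM (WT vehicle) and 1.39, 10.8 and 236 CPM (treated). Casp14, the caspase of cornification, had 0 counts in treated replicates 1 and 2, where 3 counts per library would make the WT vehicle mean at least 76.6-fold higher, and 28.3 CPM in replicate 3, beside 28.5, 7.55 and 23.4 in WT vehicle. Averaged over the 25 suprabasal genes, log2 CPM stood at −1.64, −1.66 and 5.28 in treated heterozygotes, beside 6.05, 4.24 and 5.52 for WT vehicle.

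**Figure D4:**
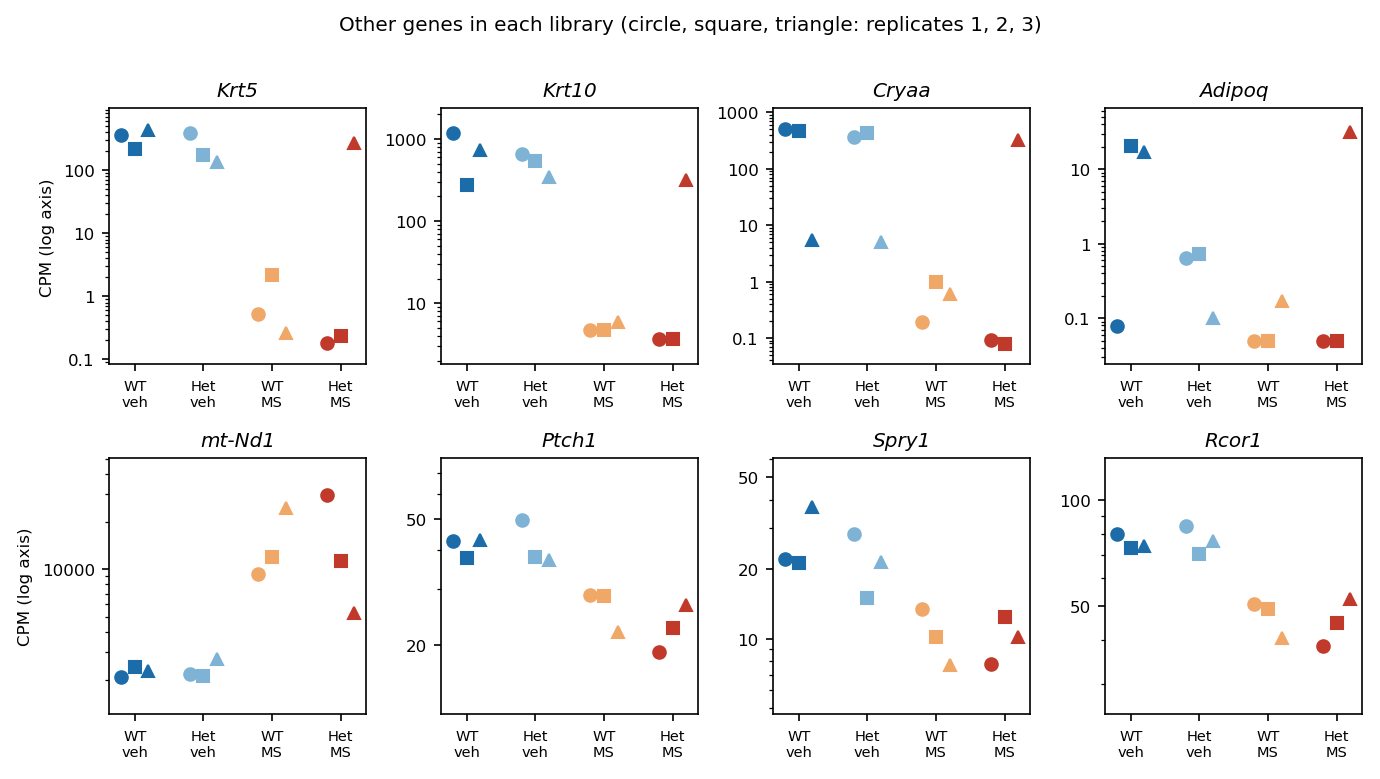
CPM (log axis) of 8 genes in each library of the 4 groups (WT or Het for Runx2+/-, veh for vehicle, MS for MS-275); 1 symbol is 1 library, and values of 0 are drawn at 0.05. Krt5, Krt10 and Cryaa are near 0 in Runx2+/- MS-275 replicates 1 and 2 and not in replicate 3 (triangle), while mt-Nd1 is higher and Ptch1, Spry1 and Rcor1 lower than in WT vehicle in all 3.

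Lens, neuron and fat genes differed among the WT vehicle libraries as well. The counts of calls in this paragraph stand beside 19.4% of all genes higher and 16.3% lower without replicate 3 of the treated group. Cryaa, a lens crystallin, stood at 508, 476 and 5.38 CPM in untreated wild type and 0.0928, 0.0797 and 327 CPM in treated heterozygotes, so that WT vehicle replicate 3 was low too. Of 22 lens and eye genes, 12 fell without replicate 3 of the treated group, but 0 without treated replicates 1 or 2 and 18 without WT vehicle replicate 3. Neuron genes had a median of −3.16 with 1 of 24 called (19 without WT vehicle replicate 3), and Nefl, a neurofilament, stood at 60.7, 67.9 and 18.4 CPM (WT vehicle) and 40.00, 11.6 and 37.9 CPM (treated) and did not pass (−0.93 with an SE of 0.86 without replicate 3). Adipoq, which fat cells secrete, stood at 0.0797, 20.5 and 16.8 CPM in WT vehicle, against 0, 0 and 31.7 CPM in treated heterozygotes, with −0.22 with an SE of 1.86 when all were used. Of 16 adipocyte genes 8 fell and 1 rose without replicate 3 (0 to 9 fell when 1 more library was left out). Ryr1, the calcium release channel of skeletal muscle, stood at 115, 156 and 62.7 CPM (WT vehicle) and 16.8, 21.3 and 140.0 CPM (treated), and 1 of 23 muscle genes rose and 1 fell. Mbp, of myelin, was lower in every treated library, at 4.36, 7.73 and 13.6 CPM beside 24.1, 19.9 and 19.9, with −1.31 (SE 0.37, adjusted p = 0.129 with edgeR) and −1.81 (SE 0.32, adjusted p = 0.00445 with edgeR) without replicate 3 (0.0527 without treated replicate 1).

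The 10 largest fold changes of each sign without replicate 3, taken among genes with a mean of at least 5 CPM in 1 group whose libraries did not overlap, were as follows. Higher were Fgf23, Mepe, Bglap2, Spp1, Bglap and Snorc, described above, and Lgals2, Clec3a, Lipc and Timp1. Lgals2, a galectin, stood at 0.199, 0.115 and 0.247 CPM in the WT vehicle libraries and 6.68, 4.70 and 0.391 CPM in treated heterozygotes, and Clec3a, a cartilage lectin, at 0.239, 0.519 and 0.593 CPM (WT vehicle) and 12.7, 12.9 and 0.174 CPM (treated). Lipc, the hepatic lipase, stood at 1.83, 0.864 and 2.87 CPM (WT vehicle) and 57.3, 27.3 and 0.957 CPM (treated), and Timp1, an inhibitor of matrix metalloproteinases, at 13.1, 7.55 and 22.9 CPM (WT vehicle) and 398, 185 and 8.74 CPM (treated). Their log2 fold changes were 4.86 with an SE of 0.45, 4.83 with an SE of 0.52, 4.50 with an SE of 0.56 and 4.32 with an SE of 0.57. Lower were the lens crystallins Cryaa, Cryba1, Cryba2, Crygb and Crygf, and the epidermal genes Rptn, Lce1m, Csta1, Crct1 and Abca12. Of these 10, all but Cryaa and Cryba1 had 0 counts in treated replicates 1 and 2, and the floor of 3 counts per library makes the WT vehicle mean at least 153-fold higher for Rptn and at least 96.1-fold higher for Abca12. When 1 more library was left out, the calls of Crygb and Crygf held in 2 of 11 fits, Cryba2 in 3, Rptn in 5, Cryba1 in 7 and Cryaa in 9, and those of Lce1m, Csta1, Crct1 and Abca12 in 11. Crystallin genes and Lce1 genes have close copies, so their values are uncertain.

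Meningeal and dural genes, a tissue that lines the calvaria, moved with bone matrix in treated replicates 1 and 2, and only in part in replicate 3. The counts of calls in this paragraph stand beside 19.4% of all genes higher and 16.3% lower without replicate 3, with a median of −0.12. Without replicate 3, 11 of 16 rose and 1 fell (4 to 12 rose when 1 more library was left out), with a median of 1.99. Ogn, a small proteoglycan, stood at 246, 250.3 and 424 CPM in untreated wild type and 3251, 2610.5 and 264 CPM in treated heterozygotes with 3.25 (SE 0.49, adjusted p = 0.00251 with edgeR) without replicate 3, and Mgp, the matrix Gla protein, at 47.4, 44.9 and 102 CPM (WT vehicle) and 899.7, 608 and 36.1 CPM (treated) (3.54 with an SE of 0.51). On library size alone 7 of the 16 rose and 2 fell. Replicate 3 lay below the WT vehicle range in 10 of 16 and within it in 6, beside 5044 and 8439 of all 18216 genes. Its median difference from the WT vehicle mean was −0.47, beside −0.97 in bone matrix. Several genes of the meningeal list are also made by bone and suture fibroblasts. Myeloid genes rose in 10 of 22 (1 to 12 when 1 more library was left out, 2 on library size alone), with Mrc1, a macrophage receptor, at 60.3, 51.3 and 137 CPM (WT vehicle) and 587, 419.7 and 50.3 CPM (treated) (2.60 with an SE of 0.46 without replicate 3).

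**Figure D5:**
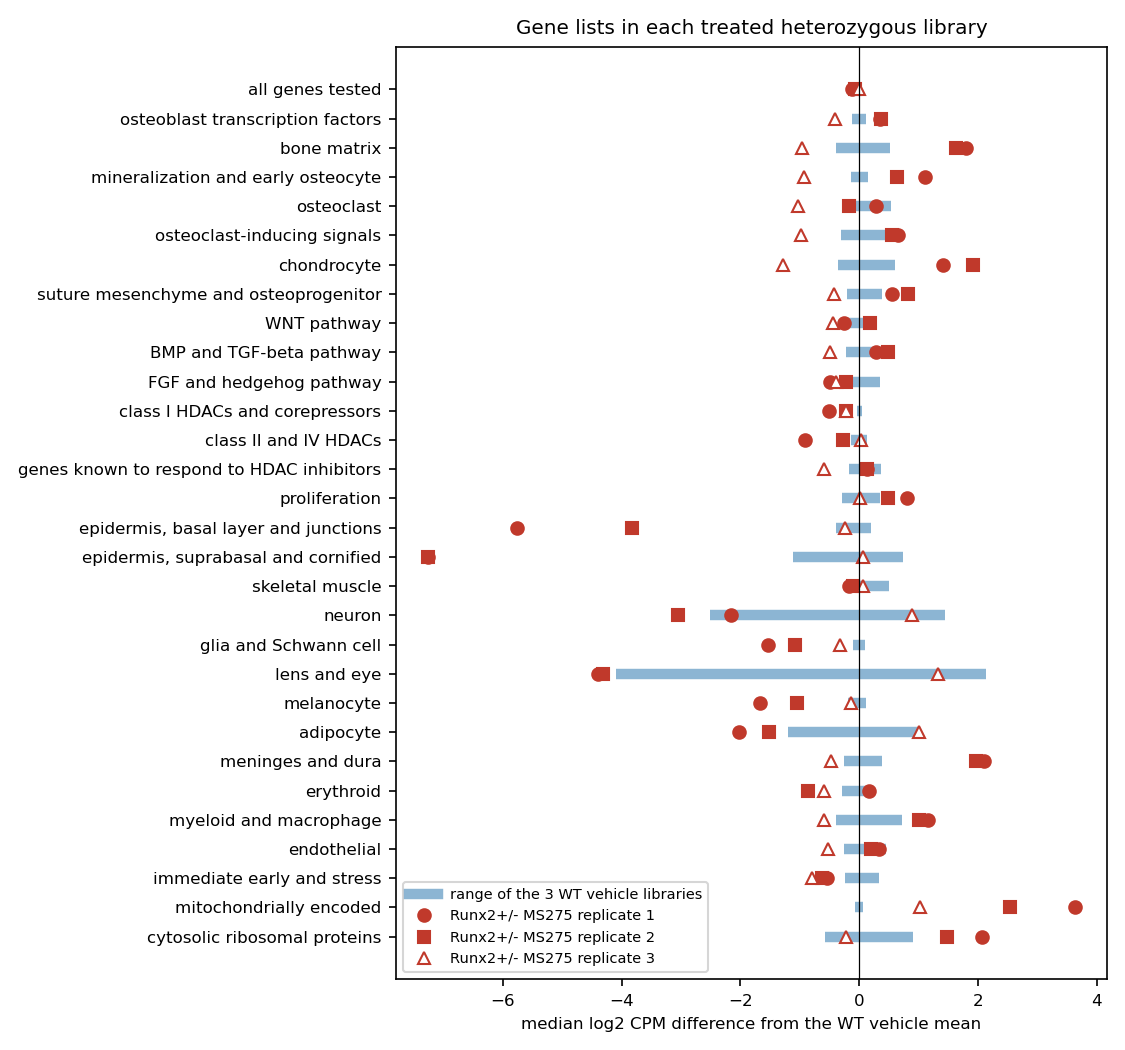
Median log2 CPM difference from the WT vehicle mean (x axis) of 29 gene lists and of all genes tested (rows), for each Runx2+/- MS-275 library (red symbols) with the range of the 3 WT vehicle libraries (blue bars). Replicates 1 and 2 lie far from 0 in bone matrix (1.80 and 1.63) and in the 2 epidermal lists, and replicate 3 (open triangle) lies at −0.97 in bone matrix and near 0 in epidermis.

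Transcripts encoded by the mitochondrial genome were higher in all 3 treated libraries, replicate 3 included. In 12 of 12 measured members the treated libraries lay above all WT vehicle libraries, beside 8.2% of all genes, and the median was 2.71 with all libraries and 3.13 without replicate 3. mt-Nd1, a subunit of respiratory complex I, stood at 2079, 2399 and 2277 CPM in WT vehicle, against 29374, 11267 and 5269 CPM in treated heterozygotes. On the log2 scale the difference was 2.76 (SE 0.67, adjusted p = 0.129 with edgeR), and 3.17 (SE 0.53, adjusted p = 0.00346 with edgeR) without replicate 3, where 12 of 12 members passed (10 without treated replicate 1). These transcripts made up 23.8%, 15.9% and 9.37% of all counts in treated replicates 1, 2 and 3, and 4.28% to 4.68% in WT vehicle. Cytosolic ribosomal protein genes rose in 17 of 30 without replicate 3, 0 of 30 without treated replicate 1 and 29 of 30 without WT vehicle replicate 3. Scaled by library size alone, 6 of 30 rose without replicate 3, and 5 of 30 when the 2 groups alone were fitted. Of all genes 19.4% rose without it. Replicate 3 of the treated group lay within the WT vehicle range in 28 of 30, beside 8439 of all 18216 genes.

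Further contrasts within the same fit place these values, and both share the treated heterozygotes with the comparison above. Against Runx2+/- vehicle, no gene passed by edgeR with all libraries (0% of 17967, 21% at an unadjusted p under 0.05, and 1220 genes by DESeq2), and 5955 genes (32.7% of 18216) passed without replicate 3. There Ibsp had a log2 fold change of 4.34 (edgeR adjusted p = 0.00302), Bglap of 4.55 (edgeR adjusted p = 0.00159) and Krt5 of −10.05 (edgeR adjusted p = 0.00128). Against WT MS-275, no gene passed by edgeR with or without replicate 3 (0%). At an unadjusted p under 0.05 were 2832 genes (15.8%) with all libraries, where DESeq2 called 702, and 1403 (7.7%) without replicate 3. Ibsp then differed by −0.10 (SE 0.60) and Bglap by −0.28 (SE 0.47). Larger differences that did not pass were those of Sp7, −1.17 (SE 0.46), and Dmp1, 1.48 (SE 0.50), treated heterozygotes over treated wild type.

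How many members were bounded near wild type differed among the lists. With all 3 libraries, the 95% interval lay within 2-fold in 0 of 22 bone matrix genes, 2 of 20 chondrocyte genes, 2 of 16 mineralization genes and 4 of 15 osteoblast transcription factors. It did so in 11 of 26 FGF and hedgehog genes, 12 of 34 BMP and TGF-beta genes, 8 of 20 class I HDAC and corepressor genes and 13 of 34 proliferation genes, beside 30.2% of all genes. Without replicate 3 the counts were again 0 of 22 in bone matrix and 2 of 20 in chondrocyte genes, beside 24.7% of all genes. Osteoblast transcription factors then held 5 of 15 and mineralization genes 2 of 17. FGF and hedgehog genes held 7 of 26 and BMP and TGF-beta genes 9 of 34. For class I HDAC and corepressor genes it was 6 of 20, and for proliferation genes 10 of 34. Intervals are wider in genes that vary more among libraries, so a gene outside the bound was not thereby shown to differ.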

How the data were processed

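RNA of mouse calvariae was sequenced as total RNA libraries (TruSeq Stranded Total RNA, per the labels' protocols). The authors deposited raw read counts per Ensembl gene for each library. Trimmomatic, Bowtie2, SAMtools and HTSeq are named, with a human build (GRCh38.p7), per the submitters' processing notes, while the gene identifiers are of mouse. Tool versions and the strand setting are not given in the sources used here. The 5 summary entries of each file were left out. Names and coordinates come from GENCODE M21 (GRCm38).

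Counts were filtered with filterByExpr, scaled by TMM and tested with edgeR 4.0.16 (glmQLFit, robust) in R 4.3.3, over all 12 libraries and again without Runx2+/- MS-275 replicate 3, with Benjamini-Hochberg adjustment over all genes tested and a threshold of 0.05. The biological coefficient of variation was 0.442 and 0.355. CPM logs used a prior count of 2. DESeq2 1.42.0 and limma 3.58.1 were alternatives, with other scalings, filters, groups, a replicate block and each library left out. The scripts were tested on simulated data. Named genes are a fixed set, the 10 largest changes in each direction past the threshold, and the members of each list with the smallest p. Hdac3 and Casp14 lie outside that rule and were chosen after their values were seen, as were 5 genes in the closing section. The comparison, members and lists were chosen with earlier results of these data known. Reads of near-identical copies (Bglap and Bglap2, crystallins, Lce1 genes) may be shared. Precision is limited by the 3 libraries a group and, for genes near the floor of 3 counts, by depth.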

Additional observations from a re-analysis of the deposited data

How the results depend on the processing

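With all libraries DESeq2 called 1250 genes higher and 778 lower, 1220 genes against Runx2+/- vehicle and 702 against WT MS-275, where edgeR called 0. Leaving out libraries moved the edgeR counts between 0 and 4091 (higher), 0 and 4554 (lower), 0 and 7808 (against Runx2+/- vehicle) and 0 and 23 (against WT MS-275), and the upper 3 of these came without replicates 3 of both Runx2+/- MS-275 and WT vehicle. Without Runx2+/- MS-275 replicate 3, leaving out 1 more library gave 609 to 4091 higher, 361 to 4554 lower and 2690 to 4513 genes bounded within 2-fold. Scaling by library size alone then gave 853 higher and 8436 lower, and fitting the 2 groups alone 2020 and 1664. The distance difference ran from −0.168 to 0.791. The cause of these changes was not tested. Leaving out a library changes both which libraries are in the fit and how many, and these cannot be told apart here.

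On library size alone, with all libraries, the log2 fold change turned to −0.78 for Acp5, −0.23 for Alpl, −0.19 for Car2, −0.13 for Cbfb, −0.51 for Col1a1, −0.35 for Hdac3, −0.33 for Sp7 and −0.15 for Tnfsf11, and without Runx2+/- MS-275 replicate 3 to −0.40 for Acp5, −0.064 for Car2, −0.041 for Cbfb, −0.074 for Col1a1, −0.73 for Hdac3 and −0.022 for Sp7. Acp5 also turned to −0.091 with no filter on low counts, −0.090 with a stricter one, −0.52 with limma-voom and −0.048 in the 2 groups alone, Col1a1 to −0.087 with limma-voom, and Hdac3 without that replicate to −0.00783 with no filter and −0.028 with a stricter one. Leaving out libraries moved Acp5 from −0.96 to 0.85 (−0.34 to 0.93 without that replicate), Adipoq from −10.75 to 0.35, Col1a1 from −0.46 to 0.83 and Sp7 from −0.025 to 1.07.

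The replicate numbers did not pair WT vehicle with Runx2+/- MS-275, whose 3 same-numbered pairs had deviations correlated at −0.479, −0.457 and −0.644. The 3 pairs of WT vehicle and Runx2+/- vehicle correlated at 0.220, 0.752 and 0.812. Over all groups 6 of 18 pairs lay above 0.1, and 1 of 12 libraries correlated best with its own number. With the replicate block edgeR called 0 genes in either direction with all libraries, and 4417 higher and 3985 lower without Runx2+/- MS-275 replicate 3. Under the block Acp5 was −0.41 and Col1a1 −0.20. Depth limits genes near the floor of 3 counts, 0.120 to 0.278 CPM.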

Other observations

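Some genes were at one level in all 3 treated heterozygous libraries, replicate 3 included, and at another in all 3 WT vehicle libraries. The genes named in this paragraph were picked by hand after their values were seen, from among those with small p in the 12-library fit. None passed there (smallest edgeR adjusted p = 0.123). They are not the 5 with the smallest p: Hnrnpa0 and Rnf187, not described here, ranked ahead of Slc7a5 and Mir99ahg. Most of the leading genes were lower in the treated libraries. Rab35, a small GTPase of membrane recycling, stood at 48.5, 51.4 and 53.1 CPM in untreated wild type and 26.1, 28.5 and 27.96 CPM in treated heterozygotes, a log2 fold change of −0.89 with an SE of 0.13. Fscn1, which bundles actin, stood at 163, 177 and 196 CPM (WT vehicle) and 61.6, 77.2 and 50.6 CPM (treated) (−1.50 with an SE of 0.22), and Slc7a5, an amino acid transporter, at 54.6, 56.6 and 69.2 CPM (WT vehicle) and 11.6, 13.8 and 25.2 CPM (treated) (−1.83 with an SE of 0.30). Atf5, a transcription factor of the stress response, stood at 42.96, 45.7 and 39.9 CPM (WT vehicle) and 14.7, 16.6 and 21.4 CPM (treated) (−1.29 with an SE of 0.19). Mir99ahg, a noncoding host transcript of microRNAs, was higher, at 13.1, 16.8 and 12.9 CPM (WT vehicle) and 62.5, 45.7 and 40.3 CPM (treated) (1.79 with an SE of 0.30). In all 5 the groups did not overlap.

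Some immediate early and stress genes were also lower throughout. All 3 treated libraries lay below all WT vehicle libraries in 8 of 20 of them, beside 9.85% of all genes, and 6 of 20 fell and 1 rose without replicate 3 (0 fell without treated replicate 1). Junb, a subunit of the AP-1 factor, stood at 7.13, 6.17 and 11.3 CPM in untreated wild type and 3.62, 2.87 and 2.35 CPM in treated heterozygotes, with −1.48 (SE 0.35, adjusted p = 0.129 with edgeR) and −1.34 (SE 0.39, adjusted p = 0.0253 with edgeR) without replicate 3 (lost without treated replicate 1 or 2, highest adjusted p 0.110). Of 10 melanocyte genes 4 fell without replicate 3, of 20 glia and Schwann cell genes 5 fell and 3 rose, of 20 endothelial genes 5 rose and 1 fell, and of 18 erythroid genes 5 rose and 2 fell, beside 19.4% of all genes higher and 16.3% lower. On library size alone 8 melanocyte genes fell, 10 glia genes fell and 2 rose, 3 endothelial genes rose and 3 fell, and 1 erythroid gene rose and 8 fell. Without treated replicate 1 as well, the first counts were 0, then 1 and 1, then 1 and 0, then 0 and 0.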
